A study of Mus musculus with 16 samples.

Results

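The genes described here serve the synthesis, storage and breakdown of triglycerides in the gastrocnemius muscle of mice. The members were the 10 genes Lpl, Acsl1, Gpam, Lpin1, Dgat1, Dgat2, Adfp (now named Plin2), Pnpla2, Lipe and Mgll, and every probe that carried such a gene name on the array was taken, which gave 10 of 27745 gene names and 23 of 41174 probes. Of these, 22 had a signal of at least 2 times the background on average in both colours and were kept, as were 19398 probes in all, and each of the 10 genes had at least 1 kept probe. The mice were adult C57BL/6N males that were 3 months old at the start and were fed for 8 weeks. All 16 animals received a corn-oil-based high-fat diet (cHF) with 10 mg per kg diet of rosiglitazone, a thiazolidinedione drug that activates the nuclear receptor PPARγ. In 8 of them this was the whole intervention (cHF+ROSI), and in the other 8, n-3 LC-PUFA given as a concentrate took the place of 15% of the fat in the diet as well (cHF+F+ROSI). Before the muscle was taken, all mice fasted for 10 h in the light phase and had Chow overnight. Mice without rosiglitazone were not analysed here, so the comparison is of mice given rosiglitazone with and without n-3 LC-PUFA, after a Chow meal. The groups also differed in the positions of their arrays on the slides, and the paper reports a lower final body weight after cHF+F+ROSI. Whether position or body weight plays a part in the differences between the groups was not tested.

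A muscle cell takes up fatty acids that lipases release from circulating lipoproteins, activates them by binding to coenzyme A and joins them stepwise to a glycerol backbone until triglyceride is formed. The triglyceride is kept in lipid droplets coated with perilipins, and a chain of lipases removes the fatty acids again when the cell needs fuel. Several genes of this pathway are known PPAR targets, and adipocytes, which lie between muscle fibres, express most of them at a high level.

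Each mouse was measured on 1 two-color Agilent array as the ratio of its own RNA (Cy5) to a common pool (Cy3) of the study's labelled samples. The study's methods name a group with more rosiglitazone in the pool when they describe the other array experiment of the study. They do not say plainly whether the pool used here held it. Values below are log2 ratios to that pool, or differences between such ratios, and no level of a gene is set against that of another. Dyes were not swapped. Each of the 4 slides carried cHF+ROSI mice at its positions 1 and 3 only, and cHF+F+ROSI mice at the other positions, so that position and diet cannot be told apart. All 7 muscle identity markers (among them Acta1, Ckm and Myh4) were well above background on 16 of 16 arrays, as were the 22 kept member probes, of which 0 were saturated. The array of cHF+ROSI replicate 1 was the dimmest, with a median Cy5 signal of 2.33 times the background, and cHF+F+ROSI replicate 2 had the lowest mean of 9 slow fibre markers (-2.14, next mouse of the group -0.66). The member results that moved most with either of these mice are given with and without it. The 10 adipocyte markers, among them Fabp4, Plin4 and Cfd, were all well above background on every array. Their mean ranged from -0.82 to 0.24 in the cHF+ROSI mice and from -1.08 to 0.76 among cHF+F+ROSI mice. The log2 fold changes of the 10 ran from -0.20 to 0.48, with 7 above 0 and 3 below. Their median was 0.25, against -0.00 over all probes. Of the 10, 1 (Plin4, higher after cHF+F+ROSI) had an unadjusted p of up to 0.05 (10%, against 7.46% of all probes). Of 8 endothelial markers, 4 (Cdh5, Cldn5, Emcn and Kdr) passed that threshold with lower values after cHF+F+ROSI, a share of 50% where 3.96% of all probes were lower. The log2 fold changes of the 8 ran from -0.45 to 0.20, with a median of -0.16 and 2 above 0. In a piece of whole muscle, fewer cells of a type and less RNA per cell cannot be told apart.

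Before adjustment, Lpin1 and Pnpla2 were higher and Adfp was lower in mice that had n-3 LC-PUFA besides rosiglitazone (cHF+F+ROSI), by 1.2-fold, 1.11-fold and 1.16-fold. The members passing an adjusted p of 0.05 numbered 0, against 0.0155% of all probes, in limma after Benjamini-Hochberg adjustment across 19398 probes, and 0 by the methods' t-test after the same adjustment, and the smallest adjusted p of a member probe was 0.406. With an unadjusted limma p of up to 0.05, 8 of the 22 kept member probes (36.4%) differed, against 7.46% of all probes. Of these, 6 were higher, where 3.5% of all probes were, and 2 were lower, where 3.96% of all probes were. Lpin1 alone gave 4 of the 8, so the probes do not count as separate findings. The count of 8 was 10 without cHF+F+ROSI replicate 2 (7.16% of all probes passed there) and 7 without the dimmest array (6.41% of all probes). It was 5 without cHF+F+ROSI replicate 3 (6.62% of all probes) and 4 with median centring (4.23% of all probes). It was also 4 with the Cy5 channel alone (7.62% of all probes), and 2 with scale normalization (4.93% of all probes). With each gene taken by its brightest kept probe, 3 of 10 genes differed (2 higher, 1 lower) and 1 had an FC of at least 1.2, a limit that 1.49% of all probes passed together with the p. The median log2 fold change of the 10 genes was 0.04, against -0.00 over all probes. It ran from 0.01 (without cHF+F+ROSI replicate 7) to 0.09 (without cHF+ROSI replicate 5) and was -0.02 with the Cy5 channel alone. The groups overlapped for all 22 member probes, whereas they did not for 0.0777% of the probes measured on every array.

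**Figure D1:**
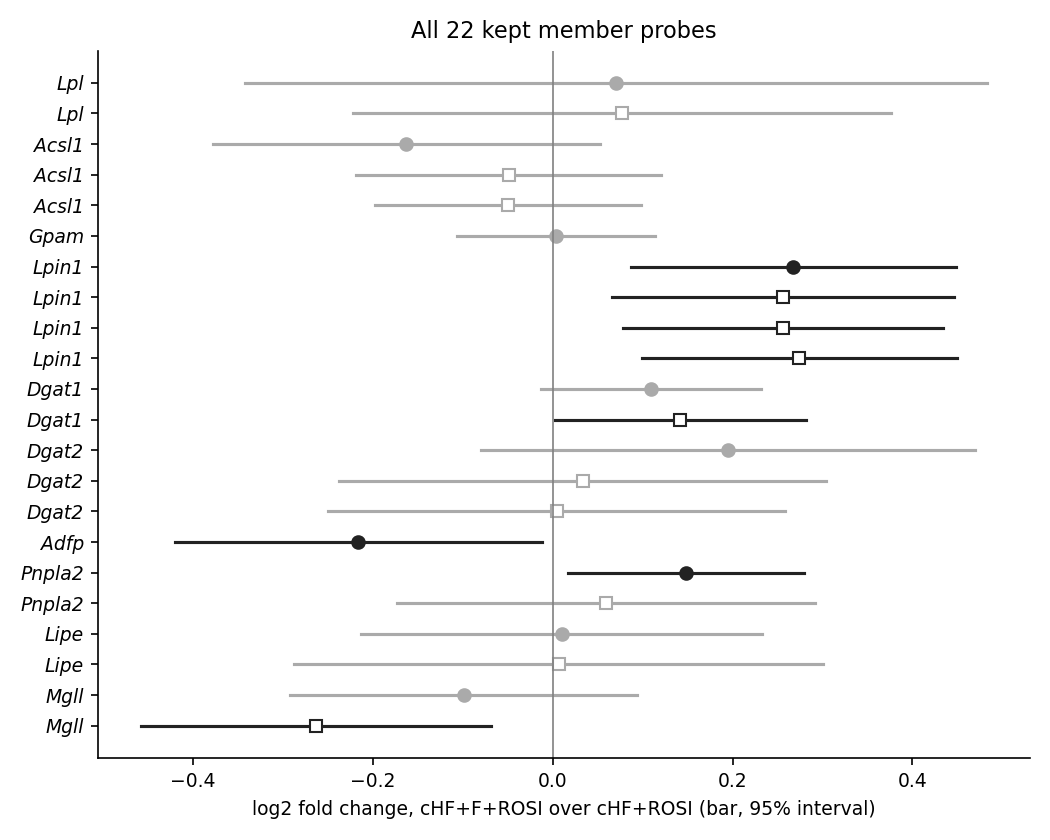
Log2 fold change of the cHF+F+ROSI over the cHF+ROSI mice for the 22 kept member probes, with the 95% interval from limma as a bar, filled circles for the probe that stands for a gene, open squares for its other probes, and black for an unadjusted p of up to 0.05. All 4 Lpin1 probes lie between 0.26 and 0.27, whereas the probes of Mgll (-0.10 and -0.26) and of Pnpla2 (0.15 and 0.06) differ in size.

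Fatty acids of circulating lipoproteins reach the muscle cell through lipoprotein lipase. Lpl encodes this enzyme, which is bound at the capillary wall and splits the triglycerides of lipoproteins. Its brightest probe (chr8:71835357-71835416; positions are on NCBI36, mm8, the build of the files, whose exon annotation was not used here) had log2 ratios from -0.79 to 0.19 in the cHF+ROSI mice, with a median of -0.22. In the cHF+F+ROSI mice they ran from -1.42 to 0.24, with a median of -0.03. The groups overlapped almost fully, and the lowest value of all 16 mice was that of cHF+F+ROSI replicate 2, well apart from the rest of its group. The log2 fold change of 0.07 had a 95% interval from -0.34 to 0.48 (adjusted p = 0.967 in limma, exact two-sided permutation p = 0.773). This interval holds changes of either sign. Without cHF+F+ROSI replicate 2 it was 0.25 (unadjusted p = 0.0495, adjusted p = 0.695), and without both this mouse and the dimmest array it was 0.26. A second probe, at chr8:71830140-71830199, gave 0.08, and 0.18 without cHF+F+ROSI replicate 2.

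Acsl1 encodes the main long-chain acyl-CoA synthetase of muscle and fat, which activates fatty acids for storage or oxidation. The brightest of its 3 probes (chr8:48034695-48034754) ranged from -0.10 to 0.53 in the cHF+ROSI mice (median 0.24) and from -0.39 to 0.25 among cHF+F+ROSI mice (median 0.19). All 8 cHF+F+ROSI mice lay below the mean of the cHF+ROSI mice, yet the ranges overlapped. The log2 fold change was -0.16 (95% interval -0.38 to 0.05, adjusted p = 0.748, limma; exact permutation p = 0.162), and -0.09 without cHF+F+ROSI replicate 2. The other probes, at chr8:48033237-48033296 and chr8:48033545-48033604, both gave -0.05 (0.01 and -0.00 without that mouse), although all 3 varied together between mice (r of the deviations from the group means at least 0.92).

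The glycerol backbone is first acylated by mitochondrial glycerol-3-phosphate acyltransferase, the product of Gpam. Its only probe (chr19:55124163-55124222) had the smallest spread of the members, from -0.11 to 0.19 in the cHF+ROSI mice and from -0.11 to 0.18 among cHF+F+ROSI mice. It was also the dimmest of the probes that stand for a gene (mean log2 signal 8.05), and the background correction makes ratios of dim probes smaller. The medians were 0.01 and 0.03, and no order between the groups was visible. The log2 fold change was 0.00 with a 95% interval from -0.11 to 0.11 (adjusted p = 0.991, limma), and its sign turned with the processing.

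Lpin1 encodes lipin 1, the phosphatidate phosphatase that makes diacylglycerol and also acts in the nucleus as a coactivator of PPARα. At the brightest of its 4 probes (chr12:16561989-16562047), the cHF+ROSI mice ranged from -0.79 to -0.16 with a median of -0.32. The cHF+F+ROSI mice ranged from -0.32 to 0.18 with a median of -0.09. All 8 cHF+F+ROSI mice were above the mean of the cHF+ROSI mice and 6 were above every cHF+ROSI mouse. The means were -0.10 ± 0.16 (SD, n = 8) and -0.37 ± 0.20 (SD, n = 8), a log2 fold change of 0.27 (95% interval 0.09 to 0.45), with an unadjusted p of 0.0061 and an adjusted p of 0.459 in limma. The exact two-sided permutation test over the mice gave p = 0.00559. The difference was positive on 4 of 4 slides but uneven, at 0.15, 0.09 and 0.14 on slides 1, 2 and 3 and 0.70 on slide 4. With slide as a block, which leaves the fold change as it is, the unadjusted limma p was 0.00827. The other 3 probes, at chr12:16562803-16562862, chr12:16562863-16562922 and chr12:16562883-16562942, gave 0.26, 0.26 and 0.27, with unadjusted p of 0.0112, 0.00745 and 0.0041. These 4 probes lie within 954 bases, and the last pair share 40 of them, so they are repeated readings of 1 stretch of the transcript. The unadjusted call held at each of the 4 probes when any single array was left out. At the brightest probe the values ran from 0.21, without cHF+ROSI replicate 7 of slide 4, to 0.30. The call was lost at the brightest probe with median centring (0.22, unadjusted p = 0.0548) and with scale normalization (0.44, unadjusted p = 0.0678).

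Dgat1 and Dgat2 encode the 2 unrelated enzymes that add the last fatty acid to diacylglycerol. Dgat1 at its brightest probe (chr15:76329953-76330099) ranged from -0.27 to -0.02 in the cHF+ROSI mice (median -0.08) and from -0.20 to 0.11 among cHF+F+ROSI mice (median 0.03). Of the latter, 5 were above every cHF+ROSI mouse, while 2 lay low in that group's range. The log2 fold change was 0.11 (95% interval -0.01 to 0.23, unadjusted p = 0.0757, adjusted p = 0.708, limma; exact permutation p = 0.0723), positive on 4 of 4 slides. The other Dgat1 probe (chr15:76330316-76330532) gave 0.14 with an unadjusted p of 0.0471, which the exact permutation test put at 0.0517. Leaving out single arrays kept this unadjusted call in 6 of 16 cases.

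Dgat2 at its brightest probe (chr7:99028897-99028956) ranged from 0.17 to 0.70 in the cHF+ROSI mice (median 0.49) and from -0.02 to 1.1 among cHF+F+ROSI mice (median 0.66). The cHF+F+ROSI mice held both the lowest and the highest value, and the lowest was again replicate 2. The log2 fold change was 0.19 (95% interval -0.08 to 0.47, adjusted p = 0.777, limma; exact permutation p = 0.194). Without cHF+F+ROSI replicate 2 it was 0.29 (unadjusted p = 0.0122, adjusted p = 0.548), and with scale normalization it turned to -0.12. The probes at chr7:99029653-99029712 and chr7:99029734-99029793 gave 0.03 and 0.00, or 0.15 and 0.08 without cHF+F+ROSI replicate 2, so the probes of this gene gave different sizes.

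Adfp encodes perilipin 2 (adipophilin), the coat protein of lipid droplets in muscle and liver, and was measured by 1 probe (chr4:86128003-86128062). The cHF+ROSI mice ranged from -0.66 to 0.06 (median -0.34) and the cHF+F+ROSI mice from -0.77 to -0.28 (median -0.48). In 7 of 8 cHF+F+ROSI mice the value was below the cHF+ROSI mean, and 2 lay below every cHF+ROSI mouse. The means were -0.53 ± 0.17 (SD, n = 8) and -0.32 ± 0.24 (SD, n = 8), a log2 fold change of -0.22 (95% interval -0.42 to -0.01) with an unadjusted p of 0.0388 and an adjusted p of 0.644 in limma. Exact permutation (two-sided) gave p = 0.0549, so the 2 tests fell on different sides of 0.05. The highest value belonged to the dimmest array, cHF+ROSI replicate 1, and without it the difference was -0.16 (unadjusted p = 0.0856). Leaving out single arrays kept the unadjusted call in 9 of 16 cases. The difference was negative on 4 of 4 slides, from -0.43 to -0.01. With slide as a block, which leaves the fold change as it is, the unadjusted limma p was 0.0449.

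Pnpla2 encodes adipose triglyceride lipase, which removes the first fatty acid from stored triglyceride. At its brightest probe (chr7:141311351-141311410) the cHF+ROSI mice ranged from -0.14 to 0.30 (median 0.10) and the cHF+F+ROSI mice from 0.13 to 0.47 (median 0.27). All 8 cHF+F+ROSI mice were above the cHF+ROSI mean and 5 cHF+ROSI mice were below every cHF+F+ROSI mouse. The means were 0.26 ± 0.10 (SD, n = 8) and 0.11 ± 0.14 (SD, n = 8), a log2 fold change of 0.15 (95% interval 0.02 to 0.28) with an unadjusted p of 0.0294 and an adjusted p of 0.621 in limma. Exact permutation (two-sided) gave p = 0.0274, and the difference was positive on 4 of 4 slides, from 0.05 to 0.29. The unadjusted call held in 13 of 16 cases with a single array left out, the exceptions being cHF+ROSI replicates 2 and 8 and cHF+F+ROSI replicate 3. With slide as a block the unadjusted p was 0.0388, and with scale normalization the difference fell to 0.03. A dimmer probe 890 bases away from end to end (chr7:141310521-141310580) gave 0.06 (unadjusted p = 0.596), with the lowest value, -0.84, again in cHF+F+ROSI replicate 2. Without this mouse the dimmer probe gave 0.16 (unadjusted p = 0.0294, adjusted p = 0.649) and the brightest 0.17. Over all 16 mice the deviations of these probes correlated with r = 0.61, the lowest value of any gene with several probes.

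Lipe encodes hormone-sensitive lipase, the next enzyme of lipolysis, which splits diacylglycerol. Its brightest probe (chr7:25089715-25091968) ranged from -0.66 to -0.01 in the cHF+ROSI mice (median -0.38) and from -0.63 to -0.06 among cHF+F+ROSI mice (median -0.29). The groups covered nearly the same range. The log2 fold change was 0.01 (95% interval -0.21 to 0.23, adjusted p = 0.99, limma), and the other probe (chr7:25089569-25089628) gave 0.01 as well. Without the dimmest array, cHF+ROSI replicate 1, the brightest probe gave 0.06.

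Mgll encodes monoglyceride lipase, which completes lipolysis and also breaks down the endocannabinoid 2-arachidonoylglycerol. Its brightest probe (chr6:88793933-88793992) ranged from -0.03 to 0.63 in the cHF+ROSI mice (median 0.28) and from -0.12 to 0.44 among cHF+F+ROSI mice (median 0.17), with a log2 fold change of -0.10 (95% interval -0.29 to 0.09, adjusted p = 0.853, limma). Without cHF+ROSI replicate 6 it was -0.05, and it ran from -0.33 with scale normalization to -0.03 in the authors' table. The mean of both kept probes gave -0.18 (unadjusted p = 0.0461, adjusted p = 0.666). The second kept probe, whose position covers 2304 bases of the genome (chr6:88789022-88791325) where most member probes cover 60, ranged from -0.52 to 0.18 (median -0.30) and from -0.81 to -0.30 (median -0.47). There, 8 of 8 cHF+F+ROSI mice lay below the cHF+ROSI mean, and 3 below every cHF+ROSI mouse. Its log2 fold change was -0.26 (95% interval -0.46 to -0.07, unadjusted p = 0.0108, adjusted p = 0.525, limma), the exact permutation test gave p = 0.0115, and the unadjusted call held in 16 of 16 cases with an array left out (-0.30 to -0.20). The 2 Mgll probes varied together with r = 0.65 between mice, above the 0.61 of Pnpla2 and below the lowest value of Dgat2 (0.73) and of Acsl1, Lpin1, Dgat1, Lpl and Lipe (from 0.80 to 0.92). The difference between the Mgll probes was not itself tested. The remaining probe (chr6:88732230-88732289) was well above background on 0 of 16 arrays in either colour and was not kept.

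**Figure D2:**
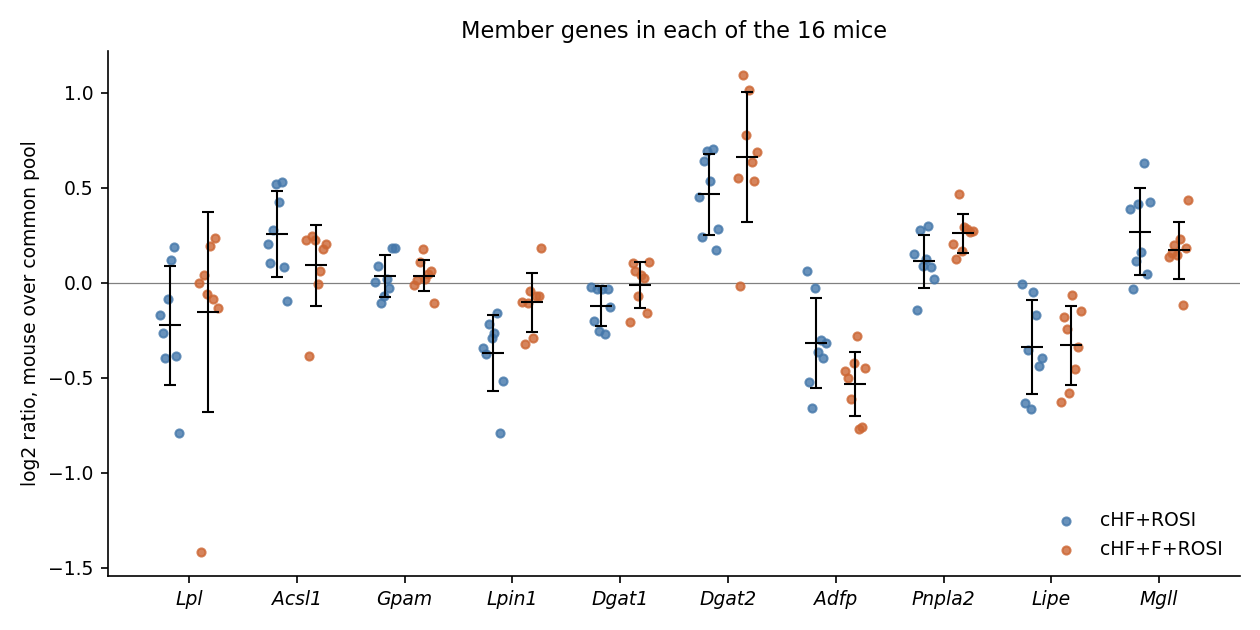
Log2 ratio to the common pool of the 10 member genes at their brightest kept probe, with 1 point per mouse (8 cHF+ROSI, 8 cHF+F+ROSI) and bars for the mean ± SD. For Lpin1, 6 cHF+F+ROSI mice lie above every cHF+ROSI mouse, while for Lpl 1 cHF+F+ROSI mouse at -1.42 sets the spread of its group.

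The stretches before the transcription start of the 3 genes that passed an unadjusted p of 0.05 at their brightest probe are shown because rosiglitazone acts through PPARγ, whose binding element is a direct repeat of the hexamer AGGTCA. The sequences are from RefSeq (GRCm38.p6, which is not the build of the probe positions), cover the 250 bases before the annotated start, and are written 5′ to 3′ on the strand of the gene, with AGGTCA or its reverse complement TGACCT in capitals. The promoters are Lpin1 at chr12:16610967-16611216 on the minus strand, Plin2 (Adfp) at chr4:86670060-86670309 on the minus strand and Pnpla2 at chr7:141454938-141455187 on the plus strand.
Lpin1: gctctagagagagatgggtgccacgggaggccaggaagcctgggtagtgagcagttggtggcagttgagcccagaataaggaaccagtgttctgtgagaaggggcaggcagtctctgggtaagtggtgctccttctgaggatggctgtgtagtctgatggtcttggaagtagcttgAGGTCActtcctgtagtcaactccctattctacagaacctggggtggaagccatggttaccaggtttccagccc
Plin2: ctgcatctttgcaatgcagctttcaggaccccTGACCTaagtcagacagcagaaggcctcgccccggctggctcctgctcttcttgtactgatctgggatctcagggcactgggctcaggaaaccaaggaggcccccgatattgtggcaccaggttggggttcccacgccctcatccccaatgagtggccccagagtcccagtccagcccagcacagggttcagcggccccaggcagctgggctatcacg
Pnpla2: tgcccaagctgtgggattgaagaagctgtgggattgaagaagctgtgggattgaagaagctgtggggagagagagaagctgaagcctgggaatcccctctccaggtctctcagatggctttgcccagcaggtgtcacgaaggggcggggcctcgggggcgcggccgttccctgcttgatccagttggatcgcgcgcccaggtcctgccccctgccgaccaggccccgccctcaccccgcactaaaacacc
The hexamer began 74 bases before the start of Lpin1 and, as TGACCT, 218 bases before that of Plin2, and these letters were not found in the window of Pnpla2. Over the 11 promoters listed for 7 of the member genes, 3 held the hexamer on either strand (Lpin1, Plin2 and 1 of 2 for Gpam), against 14.0% of all 32851 promoters in the table. The full direct repeat AGGTCANAGGTCA was in 0 of the 11 and in 0.0335% of all. A match of letters is a description of the sequence and no binding was measured.

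The other genes of the pathway were taken from 4 lists that held 42 genes, of which 36 had a kept probe. Of these, 3 were higher and 1 was lower in the cHF+F+ROSI mice at an unadjusted p of up to 0.05 (11.1%, against 7.46% of all probes), 0 passed an adjusted p of 0.05 in limma (smallest 0.459), and the median log2 fold change was 0.03. The count of 4 was 2 without cHF+F+ROSI replicate 3, 2 with median centring and 0 with scale normalization. Of all probes, 6.62%, 4.23% and 4.93% passed in these 3 settings. The lipid droplet proteins had the most, 2 of 9, both higher (22.2%, where 3.5% of all probes were higher). Plin4, a perilipin of adipocytes and muscle fibres, ranged from -0.53 to 0.30 in the cHF+ROSI mice (median -0.27) and from -0.37 to 0.75 among cHF+F+ROSI mice (median 0.37), and 5 of the latter were above every cHF+ROSI mouse. Its log2 fold change was 0.46 (95% interval 0.15 to 0.78, unadjusted p = 0.00614, adjusted p = 0.459, limma). Cidea, a droplet protein of fat cells, was also 0.46 higher (95% interval 0.02 to 0.90, unadjusted p = 0.0412, adjusted p = 0.654), though the exact permutation test gave p = 0.0639. Perilipin 1, encoded by Plin1 and typical of adipocytes, had 0.32 with an interval from -0.43 to 1.07, and Plin5, the perilipin of oxidative muscle, had -0.32 with an interval from -0.80 to 0.16. Plin1, Plin4 and Cidec of the droplet list stand in the adipocyte marker list too, so these lists are not separate readings. The adipocyte list also leaned higher after cHF+F+ROSI, with 7 of its 10 genes above 0 and a median log2 fold change of 0.25.

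Among 11 genes for the glycerol backbone and its acylation, 10 had a log2 fold change above 0, as did 9544 of the 19398 probes, and 1 of them passed the unadjusted test (9.09%, against 7.46% of all probes). This was Gpd1, which makes glycerol 3-phosphate and was 0.31 higher (95% interval 0.03 to 0.58, unadjusted p = 0.0301, adjusted p = 0.622), with 8 of 8 cHF+F+ROSI mice above the cHF+ROSI mean. In the paper's qRT-PCR of re-fed mice, its mean was also higher after cHF+F+ROSI, though not marked as different between these groups. The relatives Lpin2 and Lpin3 had 0.11 and 0.03, neither past the test. For 8 genes of fatty acid uptake and activation, 1 differed (12.5%, against the same 7.46%). This was Acsl5, an acyl-CoA synthetase, with -0.13 (95% interval -0.25 to -0.01, unadjusted p = 0.029, adjusted p = 0.616). Cd36, the fatty acid transporter, had -0.23 with an interval from -0.54 to 0.08. The paper's qRT-PCR of re-fed mice gave Cd36 a slightly higher mean after cHF+F+ROSI, not marked as different from cHF+ROSI. Of 8 lipase regulators and other lipases, 0 differed at an unadjusted p of 0.05 by limma. They included the coactivator of adipose triglyceride lipase Abhd5 (0.06, interval -0.02 to 0.15) and its inhibitor G0s2 (-0.07, interval -0.35 to 0.20). The anchor of lipoprotein lipase Gpihbp1 had -0.02 (interval -0.15 to 0.11) and the inhibitor of that lipase, Angptl4, had -0.05 (interval -0.54 to 0.44). The 6 genes without a kept probe were Gpat2, Gyk, Mogat2, Cideb, Lipc and Lipg.

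**Figure D3:**
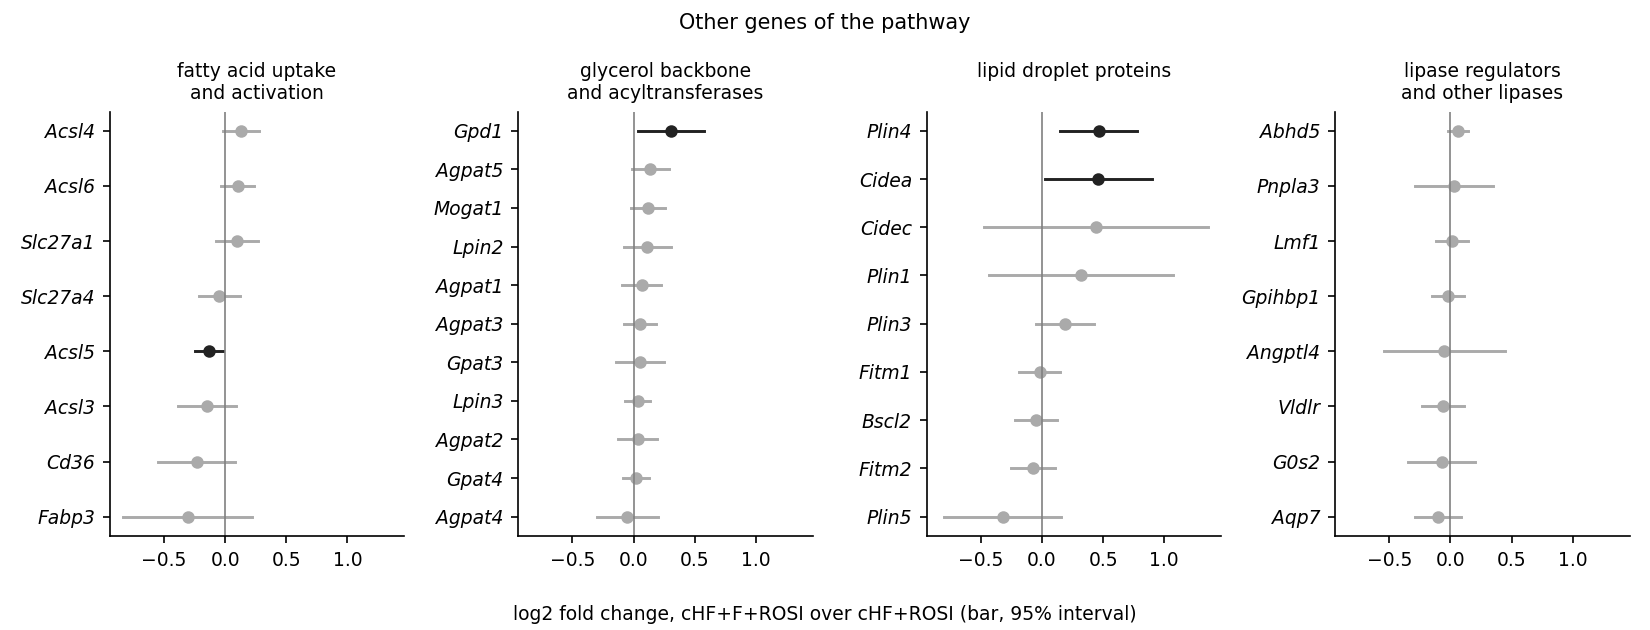
Log2 fold change of the cHF+F+ROSI over the cHF+ROSI mice for the 36 other genes of the pathway with a kept probe, in 4 lists, with the 95% interval from limma as a bar and black for an unadjusted p of up to 0.05. Plin4, Cidea and Gpd1 lie above 0 and Acsl5 lies below, and the interval of Cidec, from -0.47 to 1.36, is the widest.

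The members varied to different degrees among mice on the same diet. The SD pooled over both groups was smallest for Gpam (0.10), Dgat1 (0.11) and Pnpla2 (0.12) and largest for Dgat2 (0.28) and Lpl (0.43). The probes of Gpam and Dgat1 were dim (mean log2 signal 8.05 and 9.40, against 14.23 for Pnpla2), and the background correction makes ratios of dim probes smaller. Whether their small spread belongs to the genes was not tested. After subtraction of the group means, 27 of the 45 pairs of members had a correlation above 0 over the 16 mice, with a median r of 0.13. Lpl and Acsl1 had the highest (r = 0.83, permutation p = 0.001, adjusted over 45 pairs 0.0396; rho = 0.71, adjusted p = 0.051), and without the 2 mice farthest in Lpl r was 0.53. Lpl and Dgat2 came next (r = 0.75, adjusted p = 0.0616), with r = 0.41 without the 2 mice farthest in Lpl. For Acsl1 and Dgat2 r was 0.74 (adjusted p = 0.0396; rho = 0.70), and 0.51 without the 2 mice farthest in Acsl1. Acsl1 and Lpin1 had r = 0.70 (adjusted permutation p = 0.0435; rho = 0.75, adjusted p = 0.051), and r was 0.66 without the same mice. Dgat2 and Pnpla2 had r = 0.68 (adjusted p = 0.0396; rho = 0.72), and 0.58 without the 2 mice farthest in Dgat2. Of the 18 pairs below 0, Gpam and Lpin1 had the lowest r (-0.62, permutation p = 0.0138, adjusted p = 0.103). Their rho was -0.61, and r was -0.41 without the 2 mice farthest in Gpam. In Lpl, Acsl1 and Dgat2, which recur in the named pairs above 0, cHF+F+ROSI replicate 2 had the lowest value of its group. By rank, 0 of the 45 pairs passed an adjusted p of 0.05.

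Each member was also set against the mean of the adipocyte and of the slow fibre markers, 20 relations in all, on deviations from the group means. Pnpla2 went with the slow fibre markers (r = 0.74, permutation p = 0.0021, adjusted p = 0.0238; rho = 0.81, permutation p = 0.00054, adjusted p = 0.0108), and r was 0.82 without the 2 mice farthest from the marker median. It was 0.76 within the cHF+ROSI and 0.75 within the cHF+F+ROSI mice. The slow fibre markers themselves had a median log2 fold change of -0.39 in the cHF+F+ROSI mice, with 0 of 9 past an unadjusted p of 0.05, whereas Pnpla2 was higher there. Lpl (r = 0.76), Dgat2 (r = 0.69) and Acsl1 (r = 0.66) also had adjusted permutation p under 0.05 with these markers (0.0351, 0.0351 and 0.0488), but without the 2 farthest mice, cHF+ROSI replicate 8 and cHF+F+ROSI replicate 2, r was 0.13, 0.38 and 0.06, so these relations rested on them. Lipe went with the adipocyte markers (r = 0.72, permutation p = 0.00238, adjusted p = 0.0238; rho = 0.73, adjusted p = 0.0202) and kept r = 0.65 without the 2 farthest mice (permutation p = 0.0159, adjusted p = 0.159). For Dgat1 the figures were r = 0.68 (permutation p = 0.00664, adjusted p = 0.0351) and rho = 0.63 (adjusted p = 0.0763), with r = 0.52 without those mice. Within the groups it was 0.25 in the cHF+ROSI and 0.94 in the cHF+F+ROSI mice, against 0.63 and 0.84 for Lipe. Lpin1 and Adfp passed the limma test between the diets before adjustment but not after it. They had r of 0.11 and 0.32 with the adipocyte markers and 0.36 and -0.14 with the slow fibre markers (adjusted permutation p from 0.406 to 0.743). Whether the share of fat or of slow fibres in the sample plays a part in the diet differences was not tested.

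**Figure D4:**
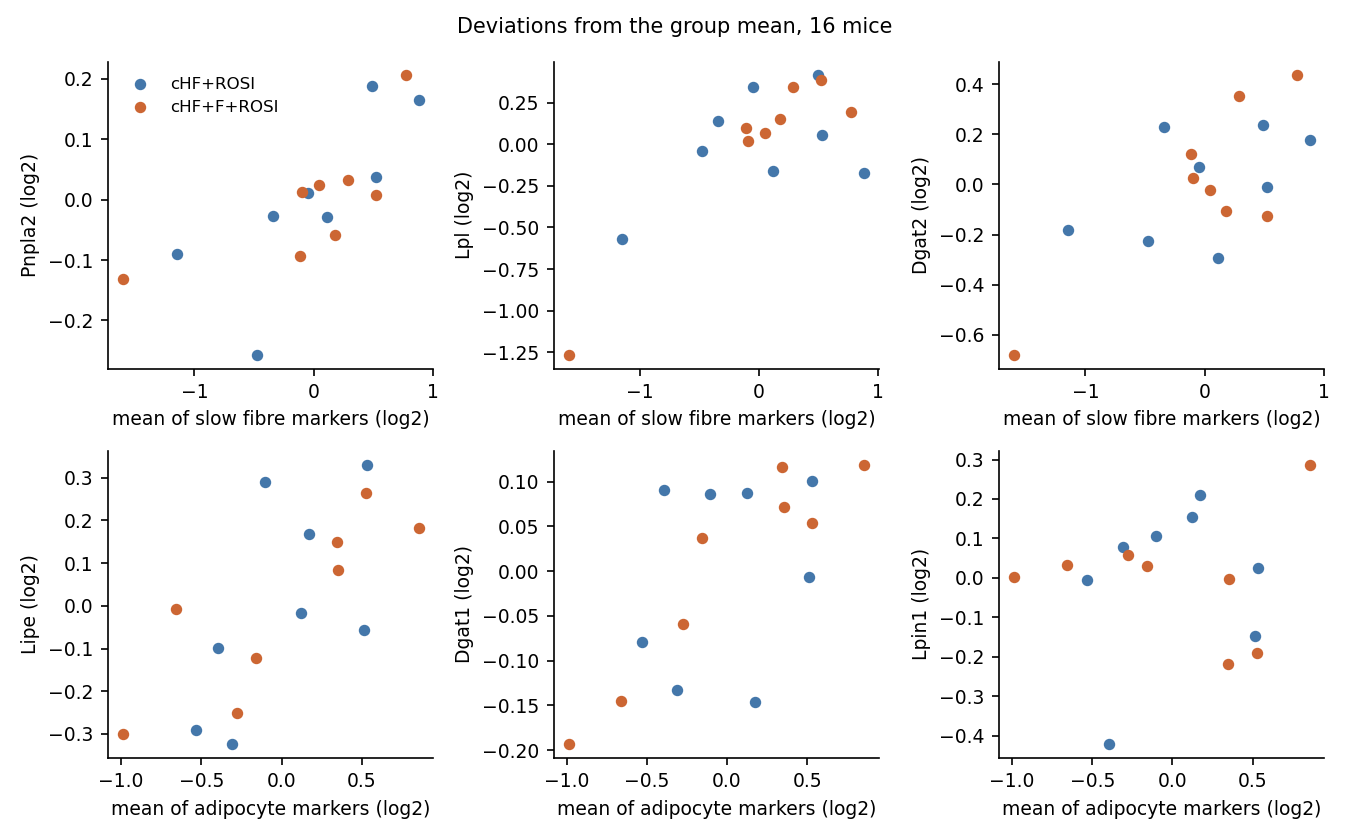
Deviation from the group mean, in log2 units, of 6 pairs of a member gene (vertical axis) and a marker mean (horizontal axis) in the 16 mice, coloured by diet. Pnpla2 climbs with the slow fibre markers along the whole range (r = 0.74), the relation of Lpl (r = 0.76) hangs on the mice at the far left, and Lpin1 shows none with the adipocyte markers (r = 0.11).

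For each member, the named genes whose deviations over the 16 mice were most like it were sought among the other probes with a value on every array. Lpl was most like Mdh1, a malate dehydrogenase (r = 0.93), Tbrg4 and Dhrs4. Qk and Perm1 were among the genes most like Acsl1 (r from 0.89 to 0.90). Lpin1 was most like Trp53inp2, Col4a1 and Arid1a (r = 0.88 for each), and Dgat1 most like Rab12, Mpdu1 and Abhd6 (r from 0.84 to 0.88). Dgat2 went with Rhoa, Ptprk and Nlgn2 (r from 0.82 to 0.84), Gpam with Tk1, Cyp2j9 and Tec (r from 0.80 to 0.81), and Adfp with Nupr1, Timm10b and Pop1 (r from 0.82 to 0.83). Pnpla2 was most like Ppp4r3a, Rhoa and Tnni1, the last being a slow fibre marker (r = 0.81). Lipe was most like Krtdap (r = 0.94), Fgfr3 and Cldnd1, and Mgll most like Dctn5, Msantd1 and Cd81 (r from 0.84 to 0.85). These are the highest of many correlations over 16 mice and describe only this set of arrays.

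The log2 fold changes of the members were then computed under 15 other ways of processing or testing and with each array left out. Under the former, Lpin1 stayed between 0.22 and 0.44, Adfp between -0.26 and -0.15, Pnpla2 between 0.03 and 0.23 and Dgat1 between 0.11 and 0.18. An unadjusted p of up to 0.05 was reached by Lpin1 in 13 of these, by Pnpla2 in 11, by Adfp in 8 and by Dgat1 in 5. Dgat2 reached it in 2, Mgll in 1 and the remaining members in 0. Probes that do not stand for their gene were followed in 14 settings, without the mean over probes. There, the second kept Mgll probe passed in 13 and the second Dgat1 probe in 11, but the dimmer Pnpla2 probe in 1. An adjusted p of up to 0.05 was reached by 0 of the 10 genes in any of the 15.

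**Figure D5:**
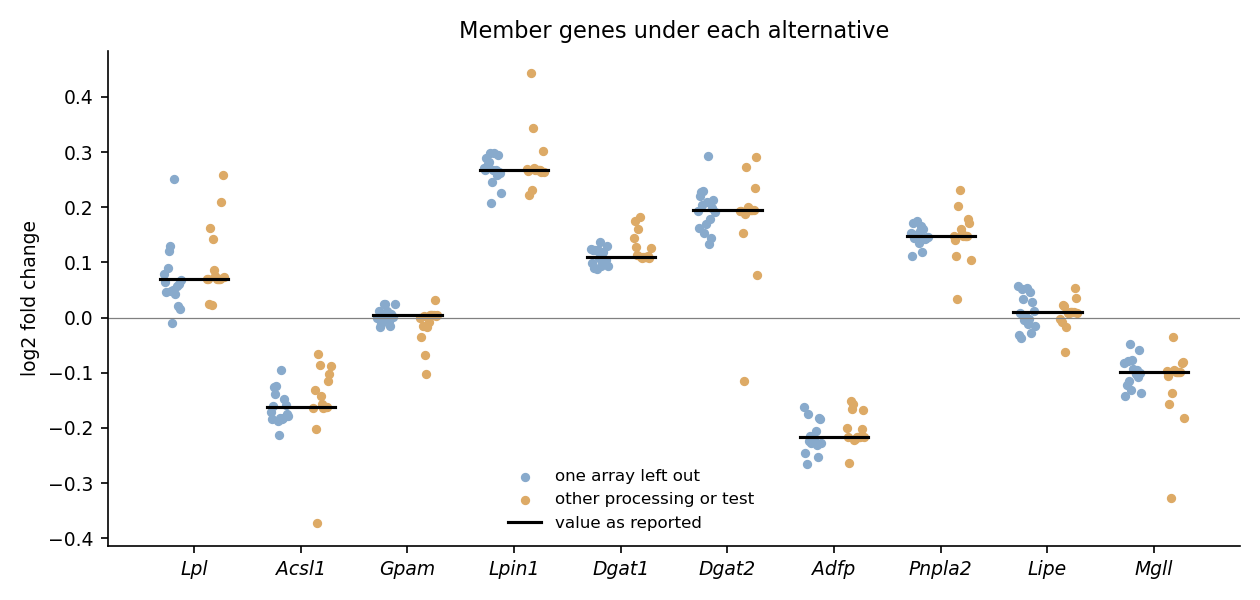
Log2 fold change of the cHF+F+ROSI over the cHF+ROSI mice for the 10 member genes at their brightest probe as reported (black line), with each of the 16 arrays left out (blue) and under 15 other ways of processing or testing (orange). Lpin1 stays above 0.2 throughout, and Dgat2 turns to -0.12 under scale normalization.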

How the data were processed

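The authors deposited, for each of the 16 arrays, the intensities of its spots from Feature Extraction (version 10.5.1.1 in the file headers, 10.5.5.1 in the submitters' processing notes). They also deposited a table of normalized log2 values, which served here only as an alternative. Differences between its cHF+ROSI columns followed the log ratios of the median signals (r at least 0.9999), and all its columns had a median of 9.52. Its direction is thus settled for the cHF+ROSI columns, and its scale offset is not. The cHF+F+ROSI columns do not name single mice and were not checked in this way.

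Median signals of all spots went through normexp background correction (offset 50), which makes fold changes of dim probes smaller. Controls and outlier-flagged spots were left out, and probes with a mean signal of at least 2 times background in both channels were kept. Ratios were normalized by loess within arrays, replicate spots were averaged, and limma 3.58.1 (R 4.3.3) compared the groups through lmFit and eBayes, its p-values being adjusted after Benjamini-Hochberg across 19398 probes. Calls at an unadjusted p of up to 0.05 use no adjustment. A gene was represented by its brightest kept probe. Single genes were also tested by exact two-sided permutation of the 16 mice, and correlations by 100000 shuffles within groups (two-sided). Mice were caged in pairs per the study's methods. The labels do not tie arrays to cages, so the tests count cage mates as separate mice.

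The member genes, the pathway and marker lists, and the rule for named genes (all members, pathway genes past the unadjusted test, and Abhd5, G0s2, Plin5, Cd36, Gpihbp1, Angptl4 and Plin1) were chosen with earlier results of these data known. Of 41174 probes, 24375 were matched to a RefSeq gene by accession. The number of arrays limits precision. Alternatives concerned how background was corrected, how arrays were normalized, use of Cy5 alone, the table of the authors, filters, flags, blocks, the methods' t-test, array weights, the mean over a gene's probes and each array left out, and, chosen after seeing the data, 2 arrays left out together.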

Additional observations from a re-analysis of the deposited data

Results flagged for a closer look

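In 6 of 48 groups of 8 values (the 22 member probes and the means of the adipocyte and slow fibre markers, each in both diets), 1 mouse stood apart from the other 7 by the gap of its value. Chance gives about 1 in 20, here 2.4, and the groups are not independent, since they share mice and several probes read the same gene. All 6 values belonged to cHF+F+ROSI replicate 2. Its log2 ratio was -1.42 at the brightest Lpl probe (next mouse -0.13) and -0.53 at the second Lpl probe (next 0.18). It was -0.39 at the brightest Acsl1 probe (next -0.01), -0.98 at the Dgat2 probe at chr7:99029653-99029712 (next -0.26) and -0.84 at the dimmer Pnpla2 probe (next -0.16). The mean of its 9 slow fibre markers was -2.14 (next -0.66).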

How the results depend on the processing

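Of 310 single-gene values under alternatives, 285 kept the sign of the reported value and 0 passed an adjusted p of 0.05, as did 0 member probes under any setting. The slide block, the replicate block and the t-test leave the fold change as it is, so there the sign could not turn. Most other values came from leaving out a single array and share nearly all mice with the reported fit. The reversals were of differences near 0, apart from Dgat2, which was -0.12 with scale normalization. Gpam was -0.0354 on Feature Extraction's processed signals, -0.0154 after median centring, -0.0677 for Cy5 alone, -0.102 in the table of the authors, -0.0163 unfiltered and -0.00861 when the channels were filtered on their mean. Lipe was -0.00318 on uncorrected signals, -0.00744 on processed signals, -0.0619 for Cy5 alone and -0.0168 in the table of the authors. With single arrays left out, Gpam ranged from -0.0164 to 0.0255, Lipe from -0.0362 to 0.0572 and Lpl from -0.0104 (without cHF+ROSI replicate 8) to 0.25. The 8 member probes at an unadjusted p of up to 0.05 became 4 with median centring, 2 with scale normalization and 4 with the Cy5 channel alone. They became from 5 to 10 with single arrays left out. The share of all probes, 7.46% as reported, was 4.23%, 4.93% and 7.62% in the first 3, and from 6.07% to 10.2% with single arrays left out. The 4 pathway genes became 2 with median centring and 0 with scale normalization, and from 2 to 5 with single arrays left out. Of the 20 relations to markers, 6 passed an adjusted permutation p of 0.05 by Pearson's r, and 1 (Pnpla2 with the slow fibre markers) without the 2 farthest mice. The cause of these changes was not tested. Mice with the same replicate number deviated together in 4 of 8 pairs only (r from -0.34 to 0.73; 3 mice correlated best with their own number), so the numbers were not taken as pairs. With the replicate block, 8 member probes and 7 pathway genes passed the unadjusted test, as did 7.36% of all probes. The weak Cy3 signal, at most 2.02 times background in the median probe of every array, limits ratios of dim genes.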
